A study of Mus musculus with 4 samples.

Results

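The Hox genes are homeobox transcription factor genes that lie side by side in 4 clusters, HoxA to HoxD. All 39 of them were looked up in an RNA-seq table of 41029 genes by the symbol that the gene identifier carries in the annotation, with no measured value used in the choice. They are 11 genes of HoxA, 10 of HoxB, 9 of HoxC and 9 of HoxD, and members that gave no reads are counted too. The RNA came from mesenchymal stem/progenitor cells grown from the bone marrow of C57BL/6 mice, adherent stromal cells able to turn into bone, cartilage or fat cells. Of the 4 libraries, 2 are labelled Tet2-/- and 2 wild type. The comparison addresses how gene expression in such cells differs without Tet2, a dioxygenase that oxidises the methyl group on cytosines of DNA. The labels give neither the age or sex of the mice, nor the bone the marrow was taken from, nor how Tet2 was disrupted, nor whether replicates were separate animals or cultures. The p-values therefore measure only the spread between these samples.

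Within a Hox cluster the genes are numbered by paralogue position, and genes of the same number in different clusters are paralogues that descend from a shared ancestor. In the mouse embryo low-numbered genes at the 3′ end of a cluster are switched on early and towards the head, and high-numbered genes at the 5′ end later and towards the tail and the tips of the limbs. Stromal cells of the adult keep much of the Hox code of the body site where they arose. The clusters are rich in CpG and are held silent or active by Polycomb and Trithorax proteins, and DNA methylation of CpG is the mark that Tet2 acts on.

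Levels are given in FPKM, read counts divided by gene length and by the total of the library, so that different genes can be compared. Library totals lay between 10096878 and 21337246 reads. Tet2 itself stood at 11.6 and 9.70 FPKM in the libraries labelled knockout, against 7.01 and 8.39 FPKM in wild type (log2 0.42, SE 0.18, adjusted p = 0.33, limma). A missing exon need not show in such a gene total, and the libraries are named by their labels below: knockout 1, knockout 2, wild type 1 and wild type 2. Both wild-type libraries were close to each other, with a median chi-square of 0.721 per gene over counts, compared with 12.9 between the knockout libraries. Read counts per gene were worked out from the FPKM and are lower bounds. Of 10 stromal markers at least 9 reached 1 FPKM in each library, at levels on both sides of wild type. Eng, a co-receptor of TGF-beta signals and 1 of the 2 genes of the table that passed the test, fell to 1.53 and 1.59 FPKM in the knockout libraries, against 110 and 102 FPKM in wild type (log2 -5.38, SE 0.13, adjusted p = 0.0237, limma). Of the 9 stromal markers tested, Eng, Cxcl12, Pdgfrb and Vcam1 had both knockout values under the wild-type ones, and Pdgfra and Nt5e had both over them. Of all genes tested 24.8% were under and 29.4% over in this way. Cxcl12, a chemokine of the marrow niche, stood at 43.4 and 46.6 FPKM in the knockout libraries, against 291 and 298 FPKM in wild type (adjusted p = 0.0793, limma). Thy1 stood at 131 FPKM in knockout 1 and 8.27 FPKM in knockout 2, against 14.9 and 15.98 FPKM in wild type. Lepr, a marker of stromal cells in intact marrow, stood at 0.316 and 2.45 FPKM, against 0.0902 and 0.333 FPKM. None of 6 endothelial markers reached 1 FPKM. Of 8 blood cell and macrophage markers 7 were tested. Ptprc, Adgre1, Csf1r and Tyrobp had both knockout values over the wild-type ones (29.4% of all genes), while Cd68 had both under them (24.8% of all genes). The sums of the 8 markers, 68.9 and 105 FPKM in the knockout libraries and 97.5 and 94.6 FPKM in wild type, were mostly Lyz2. The 7 osteoblast markers summed to 2640 FPKM in knockout 1 and 14517 FPKM in knockout 2, against 6275 and 5980 FPKM in wild type. Most of that was Col1a1, which is in the stromal list too, at 2628 and 13294 FPKM, against 6257 and 5962 FPKM. Ibsp, a bone matrix gene, stood at 0.488 FPKM in knockout 1 and 435 FPKM in knockout 2, against 5.17 and 4.95 FPKM in wild type. Alpl stood at 8.21 and 501 FPKM in that order, against 6.75 and 6.82 FPKM. Sp7 stood at 1.87 and 181 FPKM, against 5.52 and 5.73 FPKM. Bglap was at 0 and 65.3 FPKM, against 0.250 and 0 FPKM, and Dmp1 at 0.205 and 40.8 FPKM, against 0.0717 and 0.0814 FPKM. Phex stayed under 1 FPKM in every library. The 4 cartilage markers summed to 16.0 and 7.14 FPKM in the knockout libraries, against 11.1 and 11.02 FPKM in wild type, with Acan at 0 in knockout 1 and wild type 2. The 5 fat cell markers summed to 4.92 and 21.4 FPKM, against 4.15 and 4.12 FPKM, nearly all from Fabp4, while Lep was at 0 in every library. The part of these markers in the Hox results was not tested. In such bulk samples fewer cells of a type and less RNA per cell cannot be told apart.

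The wild-type cells carried a Hox code that was broad in HoxA, HoxB and HoxC and silent in HoxD. In each wild-type library 24 of the 39 genes reached 1 FPKM, with the HoxA, HoxB and HoxC clusters at sums of 151, 119 and 151 FPKM in wild type 1 and 165, 126 and 157 FPKM in wild type 2. HoxD summed to 0.0600 and 0.0945 FPKM, from 1 and 3 reads. By the mean of the wild-type libraries the 4 most abundant members were at positions 9 and 10. Hoxb9 led with 67.1 and 67.4 FPKM, followed by Hoxc10, Hoxa10, Hoxa9 and Hoxc6. Hoxc10 and Hoxa10, at 54.7 and 60.6 FPKM and at 55.2 and 58.5 FPKM, did not differ beyond the spread between libraries. Nor did Hoxa9, at 44.7 and 50.4 FPKM, and Hoxc6, at 47.2 and 45.2 FPKM, which changed places between the libraries. Position 11 was nearly empty, with a sum of 0.196 and 0.454 FPKM over its 3 genes. Hoxc13, the gene at the 5′ end of its cluster that is known for its role in hair and nail formation, stood apart from Hoxc12 and Hoxc11 at 7.45 and 8.14 FPKM.

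In both knockout libraries HoxA, HoxB and HoxC had lower sums than in wild type. The code also differed from wild type, and not in the same way in knockout 1 and knockout 2. Over all 39 genes the sum was 200 FPKM in knockout 1 and 213 FPKM in knockout 2, against 420 and 448 FPKM in wild type. The number of genes at 1 FPKM or more was no smaller, at 28 in knockout 1 and 24 in knockout 2, against 24 in each wild-type library. HoxD reached 18.8 FPKM in knockout 1, more than HoxB in that library, and 0.470 FPKM in knockout 2. HoxB stood furthest below wild type in knockout 1, at 17.6 FPKM against 79.5 FPKM in knockout 2. HoxC stood furthest below it in knockout 2, at 30.4 FPKM against 83.2 FPKM in knockout 1. Across the 39 genes the rank correlation of levels was 0.561 between knockout 1 and knockout 2, 0.719 between knockout 1 and either wild-type library, 0.826 and 0.855 between knockout 2 and wild type 1 and 2, and 0.979 between the wild-type libraries. These values are descriptions over genes, which are not independent. Over all 12344 genes whose mean was at least 1 FPKM the rank correlation was between 0.910 and 0.955 for pairs with a knockout library and 0.996 between the wild-type ones.

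**Figure D1:**
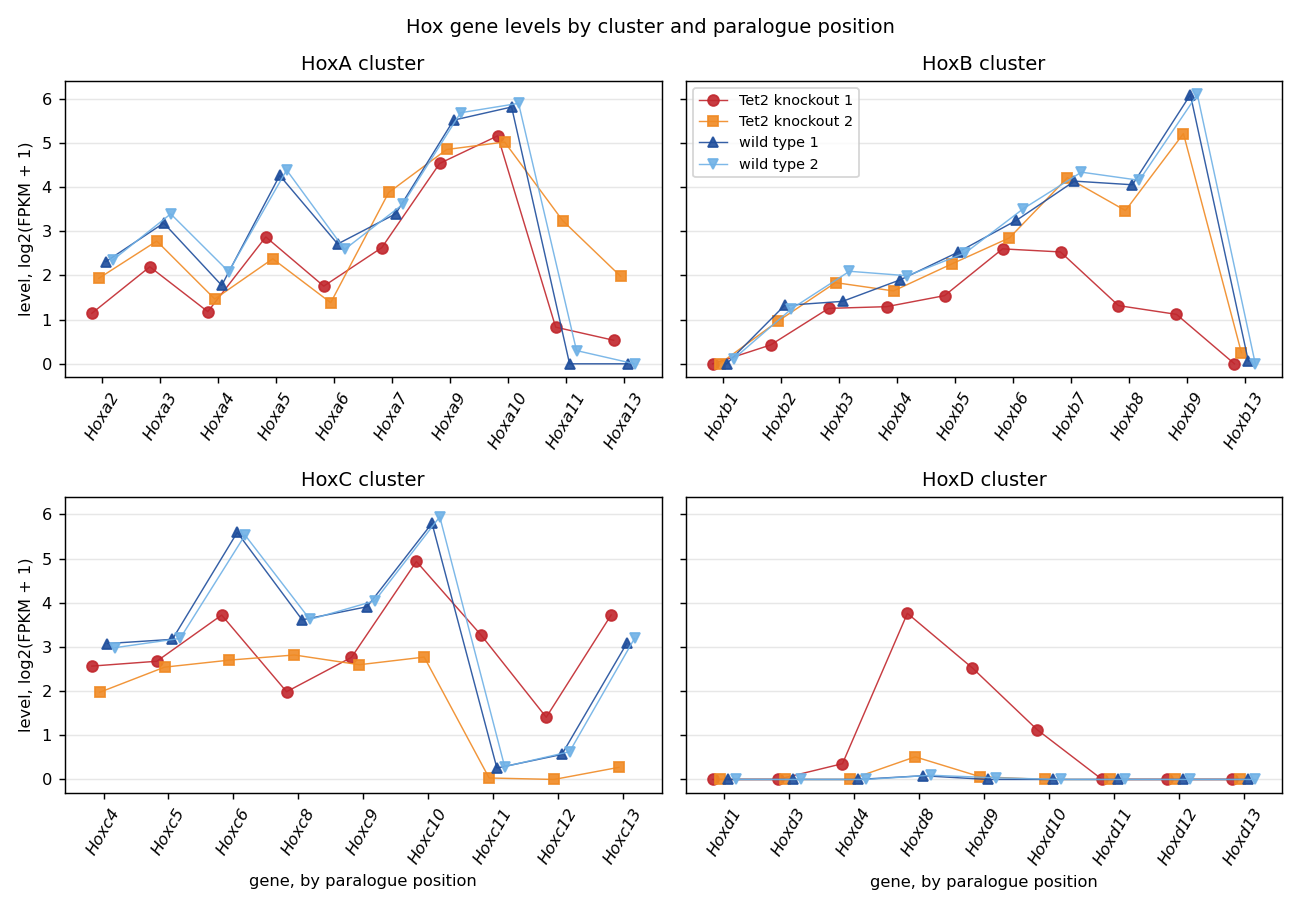
Level of Hox genes in each library on the log2(FPKM + 1) scale (y axis), with 1 panel per cluster and genes in order of paralogue position (x axis); each symbol is 1 library and lines join the genes of a library. The wild-type libraries lie on each other. Knockout 1 falls from 5.07 FPKM at Hoxb6 to 1.17 FPKM at Hoxb9 and alone reaches 1 FPKM at Hoxd8, Hoxd9 and Hoxd10. Knockout 2 drops at the 5′ end of HoxC and alone reaches 1 FPKM at Hoxa11 and Hoxa13.

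The test of knockout against wild type called no Hox gene. It was run with limma on log2(FPKM + 1) for the genes whose mean was at least 1 FPKM, which left 28 of the 39 members, and p-values were adjusted by Benjamini-Hochberg over all 12344 genes. Of those, 2 (0.0162%) passed an adjusted p of 0.05, and the smallest adjusted p of a Hox gene was 0.156 (limma), for Hoxc9. At an unadjusted p under 0.05 there were 11 members on the lower side, compared with 8.29% of all genes, and 0 on the higher side, compared with 8.84%. Fitted with voom, the read counts recovered from the FPKM likewise gave 0 called members, and 11 at an unadjusted p under 0.05, compared with 16.6% of all genes. In 20 of the 28 members the knockout libraries were both under the lower wild-type value, as in 24.8% of all genes tested, and in 3 they were both over the higher one, as in 29.4%. The log2 difference was below 0 in 24 of the 28, compared with 46.8% of all genes. The median log2 difference, knockout minus wild type, was -0.76 over the 28 members and 0.03 over all genes. The number of calls turned on the knockout libraries. Without knockout 1, 18 members passed (60.1% of all genes did) and without knockout 2, 27 did (46.5% of all genes), but in each case the lone knockout library is assumed to vary as little as the wild type.

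Before the values in each cluster, the 11 members outside the test are accounted for. Hoxd1, Hoxd3, Hoxd11, Hoxd12 and Hoxd13 had no read in any library, which allows up to 3 reads in each. The other 6 had reads but a mean under 1 FPKM: Hoxb1, Hoxb13, Hoxc12, Hoxd4, Hoxd10 and Hoxa13. For Hoxd3 and Hoxd4 a low count says little, because 62.3% and 52.3% of their exon bases lie within exons of another gene on the same strand, where reads may be left uncounted. Of the tested members, Hoxa11, Hoxc11, Hoxd8 and Hoxd9 passed the filter only through 1 knockout library and had to differ. Hoxb2 passed only through the wild-type libraries. These 5 are in the counts and medians over the tested members, among them Hoxb2 in the 20 members under wild type and Hoxa11, Hoxd8 and Hoxd9 as the 3 over it.

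HoxA occupies the minus strand of chromosome 6, with Hoxa13 at its 5′ end reaching to 52260880 in the mouse build GRCm38. Up to position 10 its genes were lower in both knockout libraries, with Hoxa7 as the exception. Past position 10 the values of Hoxa11 and Hoxa13 were higher, but in knockout 1 they rest on 9 and 8 reads. Hoxa11 had passed the filter only through knockout 2, and Hoxa13 was not tested. Of the 10 tested members of HoxA 8 were lower in both knockout libraries than in either wild-type one, compared with 24.8% of all genes tested. The median log2 difference was -0.78, made of -0.88 in knockout 1 and -0.49 in knockout 2, where the genes of chromosome 6 had medians of 0.00 and 0.02 in that order.

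Hoxa5, which patterns the neck and upper chest and the lung, had the largest difference of the cluster among members lower in both knockout libraries. It stood at 6.32 and 4.19 FPKM in knockout 1 and 2, against 18.2 and 19.9 FPKM in wild type 1 and 2. The knockout mean of 5.26 ± 1.50 FPKM was 0.276 times the wild-type mean of 19.1 ± 1.20 FPKM (SD, n = 2 each), and every knockout library was more than 2-fold below every wild-type one on the log2(FPKM + 1) scale, which is used for all 2-fold counts here. The log2 difference was -1.70 (SE 0.22, adjusted p = 0.169, limma), and the value rests on 188 and 168 reads against 345 and 664.

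Hoxa6, its neighbour, stood at 2.38 and 1.61 FPKM in the knockout libraries, against 5.55 and 5.02 FPKM in wild type (log2 -1.08, adjusted p = 0.224, limma). The most abundant members of the cluster were Hoxa10 and Hoxa9, which pattern the lower back and the upper limb segments and are also known as regulators of blood cell growth. Hoxa10 stood at 34.7 and 31.4 FPKM in the knockout libraries, against 55.2 and 58.5 FPKM in wild type, and Hoxa9 at 22.2 and 27.9 FPKM against 44.7 and 50.4 FPKM. The groups did not overlap for either gene, with log2 differences of -0.76 and -0.91 (SE 0.12 and 0.17, adjusted p = 0.204 and 0.215, limma).

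The head-ward members Hoxa2, Hoxa3 and Hoxa4, which pattern the hindbrain and the structures of the pharynx and neck, had low levels and shared 1 order of the libraries. Hoxa2 stood at 1.21 and 2.83 FPKM in the knockout libraries, against 3.96 and 4.09 FPKM in wild type, and Hoxa4 at 1.27 and 1.76 FPKM, against 2.42 and 3.25 FPKM. Hoxa3 was the highest of them at 3.58 and 5.86 FPKM in the knockout libraries, against 8.10 and 9.51 FPKM in wild type. In all 3 the lowest value was that of knockout 1, followed by knockout 2, with both wild-type libraries above. Their adjusted p-values ran from 0.268 for Hoxa3 to 0.327 for Hoxa2 (limma). Hoxa7, a gene of the trunk, did not separate the groups, at 5.18 FPKM in knockout 1 and 13.7 FPKM in knockout 2, against 9.51 and 11.2 FPKM in wild type, and its log2 difference was 0.38 without knockout 1, against -0.25 with all libraries.

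At the 5′ end of HoxA the order turned. Hoxa11, a gene of the forearm and lower leg segment in mouse limbs, stood at 0.777 FPKM in knockout 1 and 8.46 FPKM in knockout 2, against 0 and 0.231 FPKM in wild type, from 9 and 132 reads against 0 and 3. Hoxa13, a gene of the hand and foot, followed at 0.447 and 2.95 FPKM, against 0 FPKM in each wild-type library. Knockout 2 was thus the library with both genes above 1 FPKM, and its Hoxa13 level was at least 11.2-fold higher than the value of 3 reads in wild type 1, the shallower of the wild-type libraries. Hoxa11, which had passed the filter only through knockout 2, was not called (log2 1.89, SE 0.88, adjusted p = 0.359, limma). Of its exon bases 35.0% overlap an antisense gene, Hoxa11os.

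HoxB lies on the plus strand of chromosome 11, from 96194316 (Hoxb13) to 96368256 (Hoxb1). Here the distance to wild type on the log2(FPKM + 1) scale was largest at Hoxb7, Hoxb8 and Hoxb9 in knockout 1. The log2 difference of that library was -1.70 at Hoxb7, -2.79 at Hoxb8 and -4.97 at Hoxb9. It was -0.86 at Hoxb2, -0.50 at Hoxb3, -0.65 at Hoxb4, -0.98 at Hoxb5 and -0.78 at Hoxb6. This scale shrinks differences between low levels, as at Hoxb2, with 0.345 FPKM in knockout 1 against 1.50 and 1.37 FPKM in wild type. All 8 tested members were lower in knockout 1 than in knockout 2. In knockout 2 the differences stayed between -0.88 and 0.08. The medians over the tested members were -0.92 in knockout 1 and -0.31 in knockout 2, beside -0.17 and -0.16 for the genes of chromosome 11.

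Hoxb9, which patterns the rib cage, was the most abundant Hox gene of the wild-type libraries. It stood at 1.17 FPKM in knockout 1 and 36.03 FPKM in knockout 2, against 67.1 and 67.4 FPKM in wild type, from 45 and 1862 reads against 1642 and 2901. Both knockout libraries were below wild type, but they differed from each other by more than knockout 2 did from wild type. The log2 difference of -2.93 had an SE of 1.45 and an adjusted p of 0.378 (limma).

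Hoxb8 and Hoxb7 are trunk genes beside it. Hoxb8 repeated that order at 1.49 and 10.1 FPKM, against 15.6 and 16.8 FPKM in wild type. Hoxb7 stood at 4.78 FPKM in knockout 1, while knockout 2 at 17.5 FPKM lay between the wild-type libraries at 16.6 and 19.2 FPKM. The member with the smallest p was Hoxb6, at 5.07 and 6.22 FPKM in the knockout libraries against 8.50 and 10.4 FPKM in wild type (log2 -0.65, SE 0.19, adjusted p = 0.251, limma). Nearer the head end, Hoxb5 stood at 1.91 and 3.78 FPKM, against 4.78 and 4.71 FPKM in wild type. Hoxb4 stood at 1.45 and 2.14 FPKM, against 2.74 and 2.98 FPKM, and Hoxb2, a hindbrain gene, at 0.345 and 0.945 FPKM, against 1.50 and 1.37 FPKM. All 3 had both knockout values under the wild-type ones, with adjusted p-values from 0.354 to 0.369 (limma), but Hoxb2 had passed the filter only through wild type. Hoxb3 did not separate, at 1.39 and 2.57 FPKM against 1.66 and 3.27 FPKM, with a log2 difference of -0.21 that became 0.08 without knockout 1 and 0.13 without wild type 2, and 52.9% of its exon bases overlap an antisense gene. At the ends of the cluster Hoxb1 had 0 and 0 reads in the knockout libraries and 0 and 1 in wild type, and Hoxb13 had 0 and 9 reads against 1 and 0.

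HoxC lies on the plus strand of chromosome 15, from 102921103 (Hoxc13) to 103036852 (Hoxc4). Its middle members were lower in both knockout libraries, and its 5′ members were high in knockout 1 and near 0 in knockout 2. Of the 8 tested members 6 were lower in both knockout libraries than in either wild-type one, compared with 24.8% of all genes tested, and 7 were lower in knockout 2 than in knockout 1. Its median log2 difference in knockout 1 was -0.72 and in knockout 2 it was -1.22, beside 0.09 and -0.06 for the genes of chromosome 15.

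Hoxc6, a gene of the chest region, had the lowest knockout level relative to wild type among members separated by 2-fold in every pair. It stood at 12.2 and 5.50 FPKM in the knockout libraries, against 47.2 and 45.2 FPKM in wild type. The knockout mean of 8.84 ± 4.72 FPKM was 0.191 times the wild-type mean of 46.2 ± 1.40 FPKM (SD, n = 2 each), with a log2 difference of -2.35 (SE 0.38, adjusted p = 0.204, limma).

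Hoxc9, which helps set the type of vertebra and motor neuron in the trunk, had the smallest p of all members. It stood at 5.79 and 5.05 FPKM in the knockout libraries, against 14.03 and 15.5 FPKM in wild type (log2 -1.30, SE 0.15, adjusted p = 0.156, limma). On the log2(FPKM + 1) scale Hoxa5, Hoxc6 and Hoxc9 were the 3 tested members at least 2-fold lower in every pair of a knockout and a wild-type library. That compares with 1.13% of all genes tested, and 0 members were 2-fold higher in every pair, compared with 0.794%.

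Hoxc8, another trunk gene, stood at 2.96 and 6.05 FPKM in the knockout libraries, against 11.2 and 11.3 FPKM in wild type. Hoxc5 stood at 5.39 and 4.82 FPKM, against 8.01 and 8.14 FPKM, with the smallest difference of the 6 (log2 -0.57), and Hoxc4 at 4.92 and 2.92 FPKM, against 7.43 and 6.91 FPKM. None of the 3 passed, with adjusted p-values from 0.240 to 0.277 (limma).

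Hoxc10, a gene of the lower back and hind limb, marked the step between the middle and the 5′ end. It stood at 29.6 FPKM in knockout 1 and 5.82 FPKM in knockout 2, against 54.7 and 60.6 FPKM in wild type, from 894 and 237 reads against 1054 and 2056. Beyond it, Hoxc11 stood at 8.59 FPKM in knockout 1 and 0.0232 FPKM in knockout 2, against 0.196 and 0.223 FPKM in wild type. Hoxc12 stood at 1.65 and 0 FPKM, against 0.480 and 0.546 FPKM. Hoxc13 stood at 12.2 FPKM in knockout 1 and 0.209 FPKM in knockout 2, against 7.45 and 8.14 FPKM in wild type. In all 3 genes both wild-type libraries lay between the knockout ones, with knockout 1 on the higher side. Hoxc11 and Hoxc13 did not pass (adjusted p = 0.569 and 0.653, limma), and each changed the sign of its difference when a knockout library was left out. Without knockout 1 the log2 difference of Hoxc11 was -0.24, against 1.37 with all libraries, and without knockout 2 that of Hoxc13 was 0.59, against -1.14.

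HoxD lies on the plus strand of chromosome 2, from 74668310 (Hoxd13) to 74765142 (Hoxd1). It had reads in knockout 1 from 4 neighbouring genes and next to none elsewhere. Hoxd8 stood at 12.5 FPKM in knockout 1 and 0.426 FPKM in knockout 2, against 0.0600 and 0.0682 FPKM in wild type, from 328 and 15 reads against 1 and 2. Hoxd9, which helps pattern the sacral spine and the limb, stood at 4.76 and 0.0439 FPKM, against 0 and 0.0263 FPKM, from 161 and 2 reads against 0 and 1.

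Hoxd10, which acts in the hind limb and the lower spinal cord, had 17 reads in knockout 1 (1.18 FPKM), 0 in knockout 2 and 0 in either wild-type library. Its level in knockout 1 was at least 3.61-fold higher than the value of 3 reads in wild type 1. Hoxd4 had 4 reads in knockout 1 and 0 in the other libraries. Both tested members, Hoxd8 and Hoxd9, had passed the filter only through knockout 1, which thus had to lie above wild type. Both knockout values were over the wild-type ones, as in 29.4% of all genes tested. In knockout 2 this was by 0.42 and 0.04 on the log2 scale, compared with 3.67 and 2.51 in knockout 1. For Hoxd9 the value of knockout 2 rests on 2 reads, against 0 and 1 in wild type. Neither Hoxd8 nor Hoxd9 was called (adjusted p = 0.429 and 0.511, limma). The genes of chromosome 2 had medians of 0.08 in knockout 1 and 0.18 in knockout 2.

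**Figure D2:**
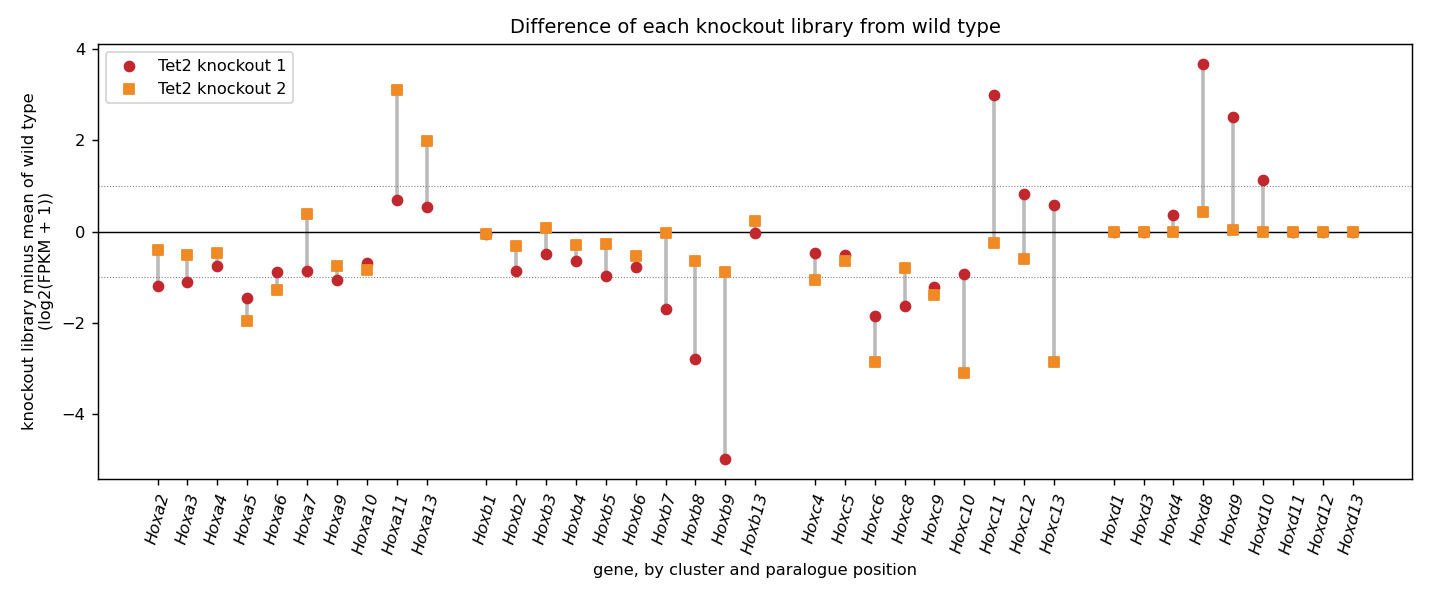
Difference of knockout 1 (circles) and knockout 2 (squares) from the mean of the wild-type libraries on the log2(FPKM + 1) scale (y axis) for Hox genes in order of cluster and paralogue position (x axis); a grey line joins both libraries and dotted lines mark a 2-fold difference. Most genes up to position 10 of HoxA, HoxB and HoxC lie below 0 in both libraries. The longest grey lines are at Hoxb9, Hoxc13, Hoxd8, Hoxc11, Hoxd9 and Hoxa11.

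On the log2(FPKM + 1) scale Hoxa5, Hoxc6 and Hoxc9 were 2-fold under wild type in both knockout libraries, and other members in 1 of them. Counts on this scale can leave out members with low levels. In plain FPKM Hoxa6 was more than 2-fold lower in every pair too, at 2.38 and 1.61 FPKM against 5.55 and 5.02 FPKM. In knockout 1, 8 of the 28 tested members were at least 2-fold below both wild-type libraries, compared with 2.37% of all genes tested, and 3 were 2-fold above both, compared with 3.0%. In knockout 2 the counts were 7 below, compared with 5.87%, and 1 above, compared with 5.14%. The higher ones were Hoxc11, Hoxd8 and Hoxd9 in knockout 1 and Hoxa11 in knockout 2, all of which had passed the filter through that library. Knockout 1 and knockout 2 were at least 2-fold apart in 11 members, compared with 12.5% of all genes, and wild type 1 and wild type 2 in 0, compared with 0.413%. With 1 library of each kind the difference between knockout 1 and knockout 2 was not tested.

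By paralogue position, the sums over all genes of a position were as follows. At positions 2, 3 and 4 they were 1.55, 4.97 and 7.92 FPKM in knockout 1 and 3.77, 8.44 and 6.82 FPKM in knockout 2, against 5.46, 9.76 and 12.6 FPKM in wild type 1 and 5.46, 12.8 and 13.1 FPKM in wild type 2. At positions 5 and 6 they were 13.6 and 19.6 FPKM in knockout 1 and 12.8 and 13.3 FPKM in knockout 2, against 31.0 and 61.3 FPKM in wild type 1 and 32.7 and 60.7 FPKM in wild type 2. At position 7 they were 9.96 FPKM in knockout 1 and 31.2 FPKM in knockout 2, against 26.1 and 30.4 FPKM, with knockout 2 above both wild-type libraries. At position 8, where Hoxd8 led in knockout 1 and Hoxb8 in the other libraries, they were 17.0 and 16.5 FPKM, against 26.9 and 28.2 FPKM. At position 9 they were 33.9 FPKM in knockout 1 and 69.0 FPKM in knockout 2, against 126 and 133 FPKM in wild type. At position 10 the order of the knockout libraries was reversed, at 65.5 and 37.3 FPKM, against 110 and 119 FPKM. Position 11 had nearly the same sum in both knockout libraries, 9.36 and 8.49 FPKM, against 0.196 and 0.454 FPKM in wild type. That sum was made by different paralogues, Hoxc11 in knockout 1 and Hoxa11 in knockout 2. At position 12 the sum was all Hoxc12. At position 13 it was Hoxc13 in knockout 1 and Hoxa13 in knockout 2 that led, while Hoxc13 led in wild type.

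Promoters of the members were compared by their CpG content, since CpG is the site where Tet2 acts. RefSeq promoter windows on GRCm38.p6, from 250 bases before the gene start to 50 after it, matched 22 of the 39 members with 24 windows. Most windows were from HoxA or HoxD, with Hoxb1, Hoxb4 and Hoxb8 from HoxB and Hoxc4 alone from HoxC. The matched windows held a median of 14.5 CpG, between 4 and 45, with a median ratio of observed to expected CpG of 0.626. Over all 32851 windows the medians were 7 and 0.384. The ratio exceeded 0.6 in 12 of the 24 Hox windows (50%) and in 35.8% of all windows. The 250 bases before the start are printed for a gene lower in both knockout libraries (Hoxa5), a gene high in knockout 2 (Hoxa11), a gene high in knockout 1 (Hoxd9) and a gene without reads in any library (Hoxd13), with each CpG in capitals. They hold 28, 13, 13 and 31 CpG in that order, and are written 5′ to 3′ along the gene. Hoxa5 is on the minus strand at chr6:52204588-52204837, Hoxa11 on the minus strand at chr6:52245811-52246060, Hoxd9 on the plus strand at chr2:74697513-74697762 and Hoxd13 on the plus strand at chr2:74667975-74668224.
Hoxa5: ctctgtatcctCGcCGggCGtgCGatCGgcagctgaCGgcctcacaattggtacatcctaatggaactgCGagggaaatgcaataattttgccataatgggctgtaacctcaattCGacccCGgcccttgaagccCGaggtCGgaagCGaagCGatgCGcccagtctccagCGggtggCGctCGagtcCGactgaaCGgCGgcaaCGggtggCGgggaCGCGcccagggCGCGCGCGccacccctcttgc
Hoxa11: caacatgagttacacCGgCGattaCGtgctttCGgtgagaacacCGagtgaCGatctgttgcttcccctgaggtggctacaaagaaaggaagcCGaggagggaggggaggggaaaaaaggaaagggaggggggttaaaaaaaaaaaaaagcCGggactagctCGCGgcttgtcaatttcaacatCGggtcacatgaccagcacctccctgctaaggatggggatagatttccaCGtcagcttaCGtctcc
Hoxd9: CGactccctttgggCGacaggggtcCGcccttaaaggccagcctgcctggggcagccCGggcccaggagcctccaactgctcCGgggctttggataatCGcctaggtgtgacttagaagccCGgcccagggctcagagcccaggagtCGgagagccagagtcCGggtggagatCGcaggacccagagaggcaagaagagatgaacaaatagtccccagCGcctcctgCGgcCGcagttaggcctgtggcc
Hoxd13: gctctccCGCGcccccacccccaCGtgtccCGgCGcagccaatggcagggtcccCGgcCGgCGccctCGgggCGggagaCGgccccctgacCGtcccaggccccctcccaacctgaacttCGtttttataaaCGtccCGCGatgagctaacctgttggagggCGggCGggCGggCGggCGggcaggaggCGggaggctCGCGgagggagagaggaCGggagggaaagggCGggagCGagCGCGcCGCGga
The silent Hoxd13 and the expressed Hoxa5 are both dense in CpG. Among the windows of 300 bases, that of Hoxa13, which reached 1 FPKM in knockout 2 alone, held 45 CpG, that of Hoxd10, which did so in knockout 1 alone, held 22, and that of Hoxa9, expressed in every library, held 4. Methylation of these sites was not measured in these data.

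Other transcripts within the clusters were looked at next to the Hox genes beside them. The annotation places 23 further genes of the table between the outermost Hox genes, most of them antisense or other noncoding genes, and 8 averaged at least 1 FPKM. None was called (limma), against 0.0162% of all genes, with 1 at an unadjusted p under 0.05. In 5 both knockout values were under the wild-type ones, and in 0 both were over them, against 24.8% and 29.4% of all genes. Their median log2 difference was -0.66, compared with 0.03 over all genes. The examples of Hotair, Hoxa11os and Hoxd3os1 were chosen after their values were seen.

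Gm53, a noncoding RNA between Hoxb13 and Hoxb9, stood at 0.0952 FPKM in knockout 1 and 4.52 FPKM in knockout 2, against 23.98 and 27.2 FPKM in wild type (log2 -3.43, SE 0.84, adjusted p = 0.234, limma). The order of the libraries was that of Hoxb9. Hotairm1, an antisense transcript of HoxA, stood at 4.55 and 7.98 FPKM, against 11.03 and 11.1 FPKM in wild type.

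Hotair, the noncoding RNA between Hoxc12 and Hoxc11, stood at 1.20 FPKM in knockout 1 and 0 FPKM in knockout 2, against 0.0494 and 0.252 FPKM in wild type, from 38 and 0 reads against 1 and 9. Hoxd3os1, antisense across Hoxd8, stood at 2.91 and 0.0541 FPKM, against 0 and 0 FPKM. Hoxa11os stood at 0.578 and 6.84 FPKM, against 0.681 and 0.731 FPKM. Each was thus high in the knockout library in which the Hox gene beside it was high. Reads of Hoxa11 and Hoxa11os cannot be told apart where they overlap, since the sources used here do not say whether reads were counted by strand.

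**Figure D3:**
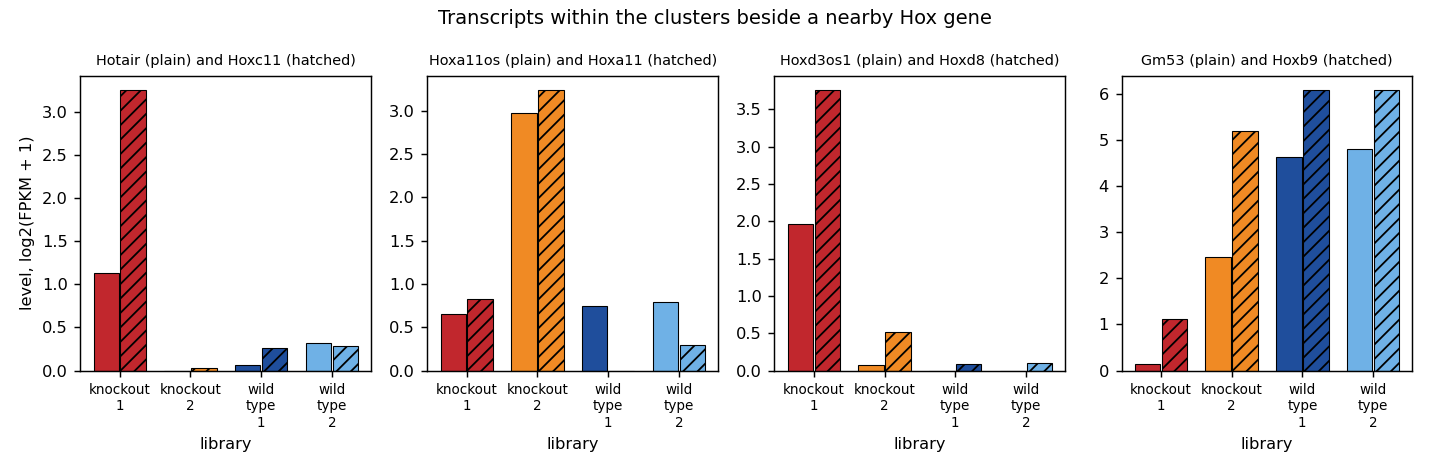
Level on the log2(FPKM + 1) scale (y axis, bars from 0, a scale of its own in each panel) of 4 noncoding transcripts (plain bars) and of a Hox gene near each (hatched bars) in every library (x axis). Hotair and Hoxd3os1 are highest in knockout 1 with Hoxc11 and Hoxd8, Hoxa11os in knockout 2 with Hoxa11, and Gm53 and Hoxb9 are both lowest in knockout 1 and highest in wild type. Hotair, Hoxa11os and Hoxd3os1 were chosen after their values were seen.

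Genes just outside the clusters lay on both sides of wild type. Of the 40 nearest protein-coding genes, 5 on each side of each cluster, 32 were tested and 0 were called, against 0.0162% of all genes. Both knockout values were under the wild-type ones in 10 and over them in 9, against 24.8% and 29.4% of all genes, 5 had an unadjusted p under 0.05 (limma), against 17.1% of all genes, and the median log2 difference was -0.03. The one with the smallest p was Skap2, an adaptor protein gene beside HoxA, at 30.8 and 30.8 FPKM in the knockout libraries against 53.3 and 54.6 FPKM in wild type (log2 -0.79, SE 0.11, adjusted p = 0.189, limma). Evx1 and Evx2, homeobox genes beside the 5′ ends of HoxA and HoxD, stood at 0.0323 and 0 FPKM in the knockout libraries with 0 FPKM in wild type, and at 0 FPKM in every library, in that order. Chn1, near HoxD, stood at 12.4 FPKM in knockout 1 and 42.6 FPKM in knockout 2, against 10.9 and 10.4 FPKM in wild type. It was not among the flanking genes with the smallest p (adjusted p = 0.438, limma).

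Of the cofactors and regulators of Hox genes none passed the test. Hox proteins bind DNA together with TALE homeobox proteins of the Pbx, Meis and Pknox families. Of 9 such genes 8 were tested, 0 were called (0 also at an unadjusted p under 0.05, limma), against 0.0162% and 17.1% of all genes, and the median log2 difference was 0.05. Pknox2, which was not among those with the smallest p (adjusted p = 0.912, limma), stood at 10.1 FPKM in knockout 1 and 2.40 FPKM in knockout 2. Its wild-type values were 4.85 and 4.19 FPKM. Pbx2 had the smallest p and stood at 18.8 and 20.1 FPKM, against 16.2 and 16.8 FPKM (log2 0.23, adjusted p = 0.412, limma). Of 22 genes that regulate Hox clusters, 19 were tested, 0 were called (2 at an unadjusted p under 0.05, limma), against the same 0.0162% and 17.1%, and the median was -0.01. Kmt2a, the Trithorax methyltransferase that keeps Hox genes active, stood at 19.0 and 17.95 FPKM in the knockout libraries, against 12.6 and 12.6 FPKM in wild type (log2 0.52, SE 0.12, adjusted p = 0.234, limma). Rara, a retinoic acid receptor gene, stood at 15.2 and 15.8 FPKM, against 21.6 and 20.7 FPKM (log2 -0.43, adjusted p = 0.250, limma). Rarg was the most abundant of the list at 116 and 165 FPKM, against 147 and 135 FPKM. The Polycomb gene Ezh2 stood at 49.4 and 48.5 FPKM, against 52.2 and 51.7 FPKM, and Cdx2 and Cdx4, which switch on trunk Hox genes in the embryo, were at 0 FPKM in every library.

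Genes that tell fore limb from hind limb were looked up as well. Pitx1, which sets hind limb identity in the mouse, stood at 17.5 FPKM in knockout 1 and 0.515 FPKM in knockout 2, against 18.2 and 19.5 FPKM in wild type (log2 -1.91, SE 1.28, adjusted p = 0.494, limma). Knockout 2 was the library with the lowest Pitx1, Hoxc10, Hoxc11, Hoxc12 and Hoxc13. It also had the lowest Hoxa5, Hoxa6, Hoxa10, Hoxc4, Hoxc5, Hoxc6 and Hoxc9. The highest Hoxa7, Hoxa11 and Hoxa13 were in knockout 2 too, as was the highest Hoxb13, from 9 reads. A link between Pitx1 and these genes was not tested. Tbx5, the fore limb counterpart, was at 0 FPKM in every library, and Tbx4 at 0 and 0.0616 FPKM in the knockout libraries, against 0.0326 and 0 FPKM in wild type.

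**Figure D4:**
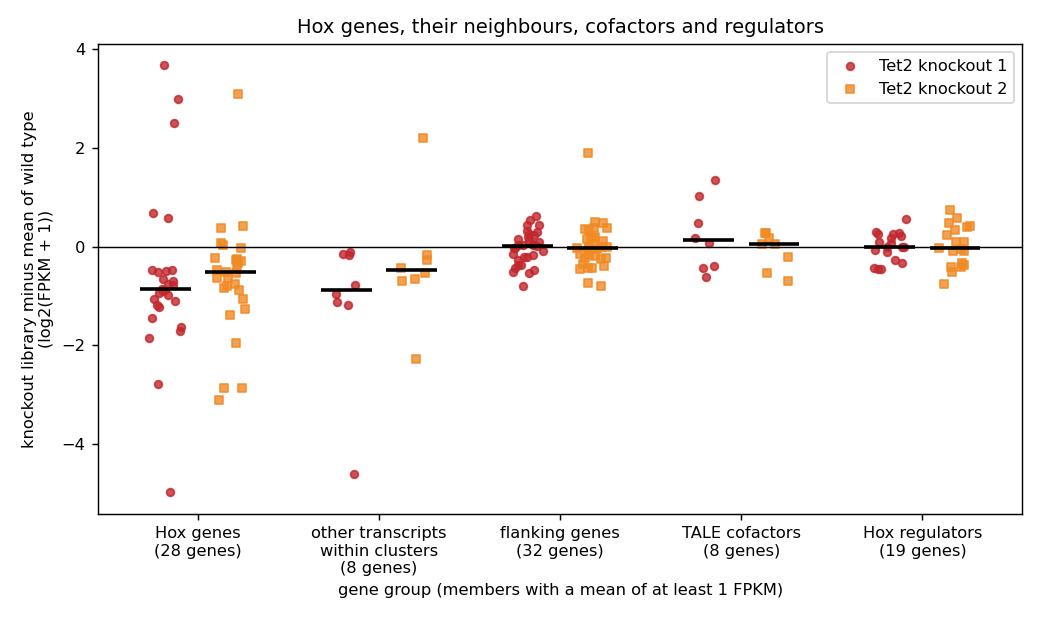
Difference of knockout 1 (circles) and knockout 2 (squares) from the mean of the wild-type libraries on the log2(FPKM + 1) scale (y axis) for tested genes of 5 groups (x axis); each symbol is 1 gene and the black bar is the group's median. The bars of the Hox genes lie at -0.86 in knockout 1 and -0.52 in knockout 2 and those of the other transcripts within the clusters at -0.87 and -0.48, while the bars of flanking genes, cofactors and regulators lie between -0.04 and 0.13.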

How the data were processed

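The authors deposited 1 table of FPKM per gene for 4 libraries, 2 labelled Tet2 knockout and 2 wild type. HTSeq 0.6.1, TopHat2 2.0.12, Bowtie2 2.2.3 and build mm10 are named, per the submitters' processing notes. The gene lengths behind the FPKM and the use of strand in counting are not given in the sources used here. FPKM are scaled to each library's total, so a rise in abundant genes lowers the rest.

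Symbols and coordinates came from GENCODE M21 (GRCm38, the assembly of mm10), which holds 40535 of 41029 identifiers. Totals and whole reads were worked out from the FPKM, to within 1e-06 of a read or a bound that grew with the count, for 25308 of 25309 genes above 0. Where counts share a factor they are lower bounds. They give depth and 1 alternative fit, and limits of 3 reads cover counting error only. Knockout 1 had 15847340 and knockout 2 had 21337246 reads over genes, against 10096878 in wild type 1 and 17778152 in wild type 2.

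Values of log2(FPKM + 1) were tested two-sided with limma 3.58.1 (R 4.3.3) with a mean-variance trend, over the genes that averaged at least 1 FPKM. An exact permutation test of 2 against 2 libraries cannot go below p = 0.333. Alternatives were pseudocounts of 0.1 and 0.01, no filter, a mean of at least 5 FPKM, 2 scalings, centring on chromosome medians, voom, no trend, a replicate block and leaving out each library. Members, lists and the rule for named genes (per cluster the 2 most abundant and the 3 with the smallest p, plus members 2-fold apart in every pair or switching between 0 and 1 FPKM) were chosen with earlier results of these data known. Values of 1 Hox gene and 1 cofactor gene are not reported here. Protein sequences were not used here.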

Additional observations from a re-analysis of the deposited data

How the results depend on the processing

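Under the 10 settings that kept all libraries, all 268 differences of single Hox genes kept their direction and stayed short of the threshold (limma and voom). With a mean of at least 5 FPKM, 16 members were tested, 13 lay below both wild-type libraries, and the median log2 difference was -1.02 over all members and -1.29 over HoxB; fewer low genes were then tested. Over all genes tested, 1 was called with a pseudocount of 0.1, 1 with 0.01, 0 with the replicate block and 0 with voom, compared with 2 in the reported fit. The labels do not say that replicate numbers pair the libraries: deviations of same-numbered libraries had a correlation of 0.00612 over all genes and 0.19 over the 28 Hox genes, and with the block 13 Hox genes had an unadjusted p under 0.05, against 10.8% of all genes, and 0 passed. With 1 library left out, between 0 and 27 Hox genes and between 0 and 7415 genes of the table were called, 3 to 22 Hox genes were lower at an unadjusted p under 0.05, and 20 to 23 lay below both wild-type libraries. Without a wild-type library 0 Hox genes passed, without knockout 1 18 did and without knockout 2 27 did, in fits where the lone knockout library borrows the spread of the wild type. The median ran from -0.86 to -0.52 over all members, -0.88 to -0.49 in HoxA, -0.92 to -0.31 in HoxB and -1.22 to -0.72 in HoxC. Of 28 genes 24 kept their direction throughout; the others ranged from -0.87 to 0.38 (Hoxa7, knockout 2 and knockout 1 left out), -0.55 to 0.13 (Hoxb3, wild type 1 and wild type 2 left out), -0.24 to 2.99 (Hoxc11, knockout 1 and knockout 2 left out) and -2.86 to 0.59 (Hoxc13, knockout 1 and knockout 2 left out). With 2 libraries a group, depth limits members under about 1 FPKM, where values rest on few reads.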
